A study of Mus musculus with 12 samples.

Results

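The 46 genes described here encode enzymes and regulators that carry pyruvate and branched-chain amino acids into the mitochondrial tricarboxylic acid (TCA) cycle and turn that cycle. They were chosen by gene symbol and function, with earlier results of these data known, so their shares beside those of all tested genes describe this list only. Of the 46, 14 belong to the TCA cycle and 12 to pyruvate dehydrogenase with its kinases, phosphatases and the mitochondrial pyruvate carrier. Another 18 belong to branched-chain amino acid breakdown, and 2 are transaminases. Each of the 46 symbols matched 1 of the 55401 rows of the count table, and all 46 were among the 15764 genes with enough counts to be tested. RNA came from the left ventricle of 15-week-old mice that were wild type (WT) or carried T497A, a substitution in Prkca, which encodes the calcium-dependent protein kinase C alpha of heart muscle. At 10 weeks of age, 5 weeks before the tissue was taken, the mice had a sham operation or transverse aortic constriction (TAC), in which a 27-gauge needle sets the width of a narrowed aorta and the left ventricle is loaded with pressure. WT sham, WT TAC, T497A sham and T497A TAC held 3 libraries each. The comparisons ask whether TAC lowers or raises the transcripts of these pathways in each genotype and whether its effect depends on the substitution.

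The labels give neither the zygosity of the T497A mice nor the cells in which the substitution is present. Each sample title carries a number of its own, but the labels do not say whether it names an animal. Whether every library comes from an animal of its own is thus not stated, so p-values measure only the spread among the libraries, which may be technical. The cell type is labelled cardiomyocyte, but the protocol extracts RNA from cardiac tissue and describes no sorting. Markers of other heart cells were present in every group, with summed levels of 891 to 2190 CPM (counts relative to a library size scaled with TMM factors) for 7 fibroblast genes and 624 to 883 CPM for 6 endothelial genes, beside 38300 to 60800 CPM for 8 cardiomyocyte genes. In such bulk samples fewer cells of a type and less RNA per cell cannot be told apart. Totals ran from 36862004 to 46898344 counts per library, the 46 genes had 432 to 144662 counts in each library, and the biological coefficient of variation over all tested genes was 17.2%.

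The pyruvate dehydrogenase complex converts pyruvate to acetyl-CoA, the fuel of the TCA cycle, and the branched-chain ketoacid dehydrogenase complex carries out the committed step in the breakdown of leucine, isoleucine and valine. Both complexes are switched off when kinases phosphorylate their E1 subunit (Pdk1, Pdk2 and Pdk4 for pyruvate dehydrogenase, Bckdk for the branched-chain complex) and switched on when phosphatases remove the phosphate (Pdp1 and Pdp2, and Ppm1k). The heart draws most of its energy from mitochondrial oxidation, and lower expression of these pathways is known from pressure-overloaded hearts.

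Promoter sequence is shown for Pdp2 and Ppm1k, the phosphatase genes with the largest TAC effects in the pyruvate dehydrogenase and the branched-chain groups, and for Pccb, a subunit gene of propionyl-CoA carboxylase whose promoter holds 2 copies of the binding core of NRF1, a regulator of nuclear genes for mitochondrial proteins. RefSeq promoter windows (build GRCm38.p6, 250 bases before to 50 after the start site) were given for 42 of the 46 genes. The first and second stretches run from 230 to 31 bases before the start, with capitals marking CG dinucleotides. The Pccb stretch runs from 110 to 16 bases before the start, with capitals marking the NRF1 cores. The 3 stretches, 5′ to 3′ on the gene's own strand, lie at chr8:104591242-104591441 (+), chr6:57535518-57535717 (-) and chr9:101034900-101034994 (-), and none of their bases is annotated as exon.
Pdp2: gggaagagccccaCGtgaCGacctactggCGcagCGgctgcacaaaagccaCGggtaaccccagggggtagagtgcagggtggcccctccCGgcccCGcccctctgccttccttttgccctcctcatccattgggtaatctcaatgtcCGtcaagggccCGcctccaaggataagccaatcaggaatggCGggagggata
Ppm1k: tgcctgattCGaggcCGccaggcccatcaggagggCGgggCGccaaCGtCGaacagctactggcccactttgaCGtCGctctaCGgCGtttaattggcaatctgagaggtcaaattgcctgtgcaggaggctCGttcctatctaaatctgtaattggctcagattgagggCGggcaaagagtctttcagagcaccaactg
Pccb: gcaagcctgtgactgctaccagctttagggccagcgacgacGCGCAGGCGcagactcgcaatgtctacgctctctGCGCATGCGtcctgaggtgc

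Of the 2 phosphatase promoters, the 300-base window of Pdp2 was 60.7% G and C with 14 CG dinucleotides. That of Ppm1k was 52.7% G and C with 16. Their ratio of observed to expected CG was 0.507 and 0.771, above that of 58.5% and 76.8% of all RefSeq windows. Motifs were searched on both strands. A gene was counted once if any of its windows held the motif, whereas shares of all windows count each window, so the 2 measures differ. The NRF1 core GCGCANGCG was found in 5 of the 42 member genes (11.9%: Dld, Hibadh, Ogdh, Pccb and Sucla2), in 14% of 11478 tested genes and in 6.25% of all 32851 windows. The core CCGGAAG, bound by ETS factors such as GABP, was found in another 5 member genes (11.9%: Auh, Dlst, Idh3b, Idh3g and Mpc1), in 18.3% of tested genes and in 8.86% of all windows. The extended half-site of the estrogen-related receptors, TNAAGGTCA, was in 0 of 42 member genes, in 0.906% of tested genes and in 1.28% of all windows. The member shares rest on 5, 5 and 0 of 42 genes, and their differences from the shares in tested genes were not tested. The window covers a small part of each gene's regulatory sequence.

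In WT hearts TAC was followed by lower levels of nearly the whole set. With edgeR's quasi-likelihood test, adjusted by the Benjamini-Hochberg method over all tested genes and called below 0.05, 44 of the 46 genes fell and 0 rose, while 12.6% of all tested genes fell and 12.3% rose. The median log2 fold change was -0.53 over the 46 genes and 0.01 over all tested genes. By pathway, 14 of 14 TCA cycle genes fell (median -0.50), 10 of 12 of the pyruvate dehydrogenase group (median -0.44), 18 of 18 of branched-chain breakdown (median -0.69) and both transaminases. All 3 TAC libraries lay below all 3 sham libraries for 44 of the 46 genes, and for 20.7% of all tested genes. DESeq2 and limma-voom also called 44 lower and 0 higher. With each library left out in turn 39 to 44 genes were called, and the calls lost were those of Bcat2, Bckdk, Idh2, Ogdh and Pdk1: up to 5 of them without a WT sham library, up to 4 without a WT TAC library and up to 2 without T497A sham replicate 1 or 3.

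Other features of the tissue moved with this fall. Of 8 cardiomyocyte markers 6 fell in WT TAC (median log2 fold change -0.48). The other 2 were Actc1 (means of 8870 CPM in WT sham and 9150 in WT TAC) and Tnnc1 (1520 and 1610). The summed level of the 8 was 52600 to 60800 CPM in WT sham and 38300 to 46000 CPM in WT TAC. Myh6, the largest part of that sum, had means of 24000 CPM in WT sham and 15700 in WT TAC. Markers of fibroblasts rose for 4 of 7 genes (summed level 923 to 1020 CPM in WT sham, 1920 to 2190 CPM in WT TAC), those of macrophages for 5 of 6 (117 to 130 and 184 to 222 CPM) and those of erythrocytes for 3 of 4 (112 to 169 and 199 to 288 CPM), and none of these markers was at 0 in any library. The mitochondrial genome gave 26.9% ± 1.94 of counts in WT sham and 20.1% ± 0.698 in WT TAC (SD, n = 3). The part of these shifts in the fall of the 46 genes was not tested.

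In T497A hearts the differences pointed the same way for most genes but were smaller, and 1 of the 46 genes was called. Gpt, the cytosolic alanine transaminase, fell (log2 fold change -0.58 ± 0.10 SE, edgeR adjusted p = 0.0449), while 0.0507% of all tested genes fell. The median over the 46 genes was -0.22, against 0.01 over all tested genes, and 44 of the 46 values were negative. The 3 T497A TAC libraries lay below all 3 T497A sham libraries for 33 of the 46 genes, a pattern that 7.68% of all tested genes showed. By pathway the median was -0.22 in the TCA cycle, -0.14 in the pyruvate dehydrogenase group and -0.23 in branched-chain breakdown, with 0 genes called by edgeR in each. At an unadjusted p under 0.05 the counts were 12 of 14, 4 of 12 and 14 of 18, against 11.7% of all tested genes in either direction. DESeq2 called 6 of the 46 genes lower (Cs, Idh3g, Suclg1, Mdh2, Ppm1k and Gpt) and limma-voom 0. The call of Gpt held without WT TAC replicate 2 or T497A TAC replicate 1 and was lost without any of the other 10 libraries, where its adjusted p lay between 0.0524 and 0.207.

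In T497A edgeR called 0 of 8 cardiomyocyte, 0 of 7 fibroblast, 0 of 6 macrophage and 0 of 4 erythrocyte markers after TAC. At an unadjusted p under 0.05 its counts were 5, 4, 4 and 0, against 11.7% of all tested genes in either direction. With limma-voom 0 of each were called, and DESeq2 called 1 cardiomyocyte marker lower and 1 fibroblast and 1 macrophage marker higher. The cardiomyocyte markers had a median log2 fold change of -0.22 and a summed level of 48200 to 56800 CPM in sham and 45300 to 47200 CPM in TAC. The fibroblast markers (median 0.43) summed to 891 to 1190 CPM after sham and 1240 to 1510 CPM after TAC, and the macrophage markers (median 0.32) to 120 to 150 and 141 to 191 CPM, ranges that overlapped. Those of erythrocytes (median 0.21) summed to 160 to 184 and 128 to 222 CPM. The mitochondrial genome gave 29.2% ± 1.48 of counts after sham and 25.3% ± 0.77 after TAC. Their part in the values of the 46 genes was not tested.

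**Figure D1:**
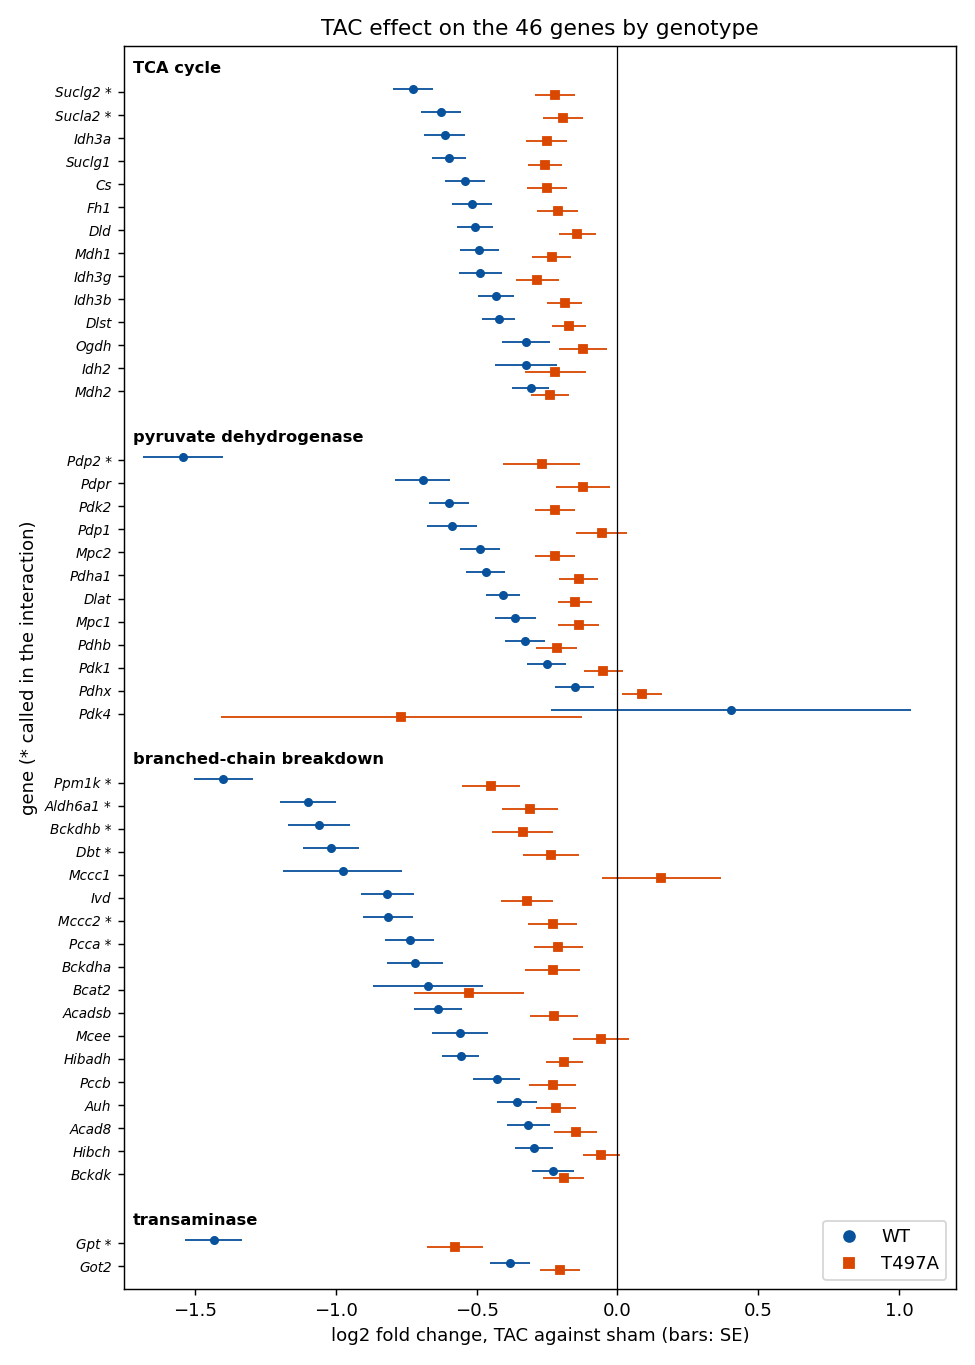
The log2 fold change of TAC against sham is plotted for each of the 46 genes (horizontal axis, log2; bars are the SE of the edgeR fit), with circles for WT and squares for T497A, 3 libraries per group. The WT values lie below 0 for 45 of 46 genes and the T497A values lie closer to 0 for most genes; an asterisk marks the 10 genes whose TAC effect differed between genotypes.

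The dependence of the TAC effect on genotype was tested directly by the interaction, the log2 TAC effect in T497A minus that in WT. It was called for 10 of the 46 genes, all with a higher (less negative) value in T497A, while it was called for 1.57% of all tested genes in either direction and for 0.894% as higher. The 10 genes were Ppm1k, Pdp2, Gpt, Aldh6a1, Dbt, Suclg2, Bckdhb, Mccc2, Pcca and Sucla2. They comprised 6 of 18 genes of branched-chain breakdown, 2 of 14 of the TCA cycle, 1 of 12 of the pyruvate dehydrogenase group and 1 of 2 transaminases. The median interaction was 0.49 in branched-chain breakdown, 0.27 in the TCA cycle, 0.26 in the pyruvate dehydrogenase group, 0.32 over the 46 genes and 0.00 over all tested genes. The interaction of the 8 cardiomyocyte markers had a median of 0.23 (1 called higher by edgeR) and that of the 7 fibroblast markers -0.37 (1 called lower). It was negative for all 6 macrophage markers (median -0.41) and all 4 erythrocyte markers (median -0.78), with 0 called by edgeR. Of the macrophage markers DESeq2 called 1 lower and limma-voom 0. At an unadjusted p under 0.05 the edgeR counts were 3 cardiomyocyte, 3 fibroblast, 2 macrophage and 0 erythrocyte markers. The count was 33 for the 46 genes and 2647 for the 15764 tested genes. By pathway it was 10 of 14 in the TCA cycle, 9 of 12 in the pyruvate dehydrogenase group and 13 of 18 in branched-chain breakdown. The value was positive for 45 of the 46 genes and for 7853 of the tested genes. The part of the markers in the interaction of the 46 genes was not tested.

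Most of these 10 calls stood near the threshold. Pdp2, Ppm1k and Gpt were called in all 17 alternative analyses of the interaction, and the other 7 genes were each lost in at least 1 of them. The count fell to 3 without WT sham replicate 1 or 3, WT TAC replicate 3, T497A sham replicate 3 or T497A TAC replicate 3, to 5 without T497A sham replicate 2 or T497A TAC replicate 1 and to 6 without WT TAC replicate 1, and it rose to 19 without T497A TAC replicate 2. That library was the lowest of its group over the set: its mean log2 difference from the WT sham mean over the 46 genes was -0.34, against -0.20 and -0.23 in replicates 1 and 3.

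After TAC, T497A hearts had higher levels than WT hearts for 27 of the 46 genes and a lower level for 0 (also 0 with DESeq2 and limma-voom), while 4.64% of all tested genes were higher and 4.06% lower. The median log2 difference was 0.29 over the 46 genes and 0.00 over all tested genes, and it was 0.41 in branched-chain breakdown (11 of 18 higher), 0.27 in the pyruvate dehydrogenase group (6 of 12) and 0.25 in the TCA cycle (9 of 14). Between the same libraries 3 of 8 cardiomyocyte markers were higher in T497A (median 0.19), and 2 of 7 fibroblast markers (median -0.27) and 1 of 6 macrophage markers (median -0.28) were lower. Of the 4 erythrocyte markers edgeR called 0 (median -0.32). The mitochondrial genome gave 25.3% ± 0.77 of counts in T497A TAC and 20.1% ± 0.698 in WT TAC (SD, n = 3). The part of these differences in the levels of the 46 genes was not tested. This comparison shares its 6 TAC libraries with the interaction and with the TAC effects. The count was 13 without WT TAC replicate 3, 15 without T497A TAC replicate 1 and 14 without T497A TAC replicate 3. After sham, edgeR called 0 of the 46 genes between genotypes (also 0 with DESeq2 and limma-voom), while 0.0254% of all tested genes were called in either direction. At an unadjusted p under 0.05 the edgeR counts were 2 of the 46 genes (Pdp1 and Mccc1) and 477 of the 15764 tested genes. The median difference after sham was -0.04. Without WT sham replicate 2, 1 gene was called there, Mccc1 (lower in T497A, edgeR adjusted p = 0.0298).

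**Figure D2:**
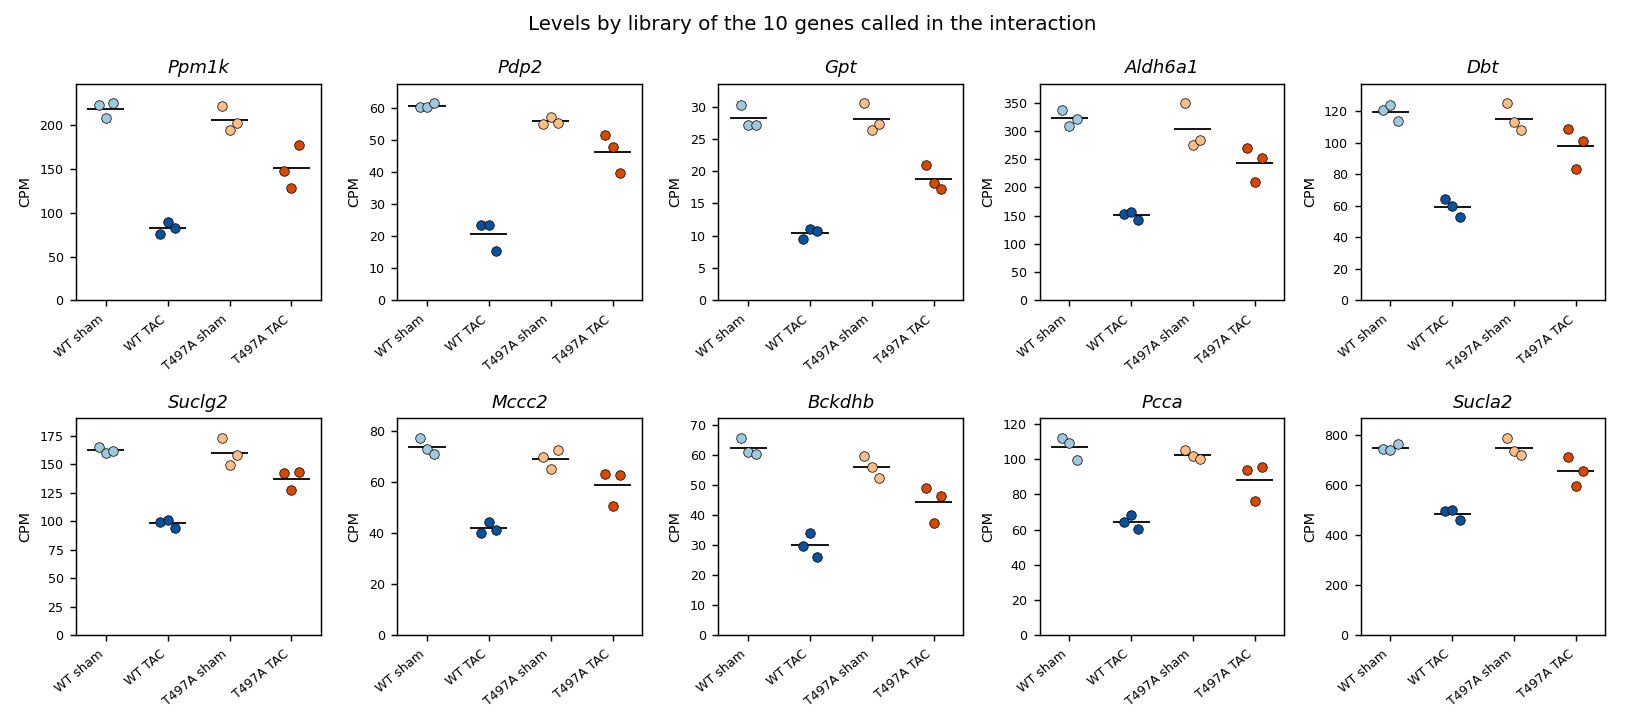
Levels in CPM (vertical axis, starting at 0) of the 10 genes whose TAC effect differed between genotypes are plotted for each of the 12 libraries by group, with a line at each group mean. In every panel the 3 WT TAC libraries lie below all libraries of the other groups, and the T497A TAC libraries lie between them and the sham libraries except for 1 library of Dbt, which overlaps T497A sham; Pdp2 has 15.3 to 23.6 CPM in WT TAC and 39.7 to 51.5 CPM in T497A TAC.

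In the TCA cycle the largest falls were those of Suclg2, Sucla2 and Idh3a. Suclg2 and Sucla2 encode the GTP-forming and ATP-forming beta subunits of succinyl-CoA ligase, and Idh3a the catalytic subunit of the NAD-dependent isocitrate dehydrogenase. Suclg2 was at 165, 160 and 162 CPM in WT sham, 99.6, 101 and 93.8 in WT TAC, 173, 149 and 158 in T497A after sham and 142, 127 and 143 in T497A after TAC. Its 4 groups were ordered with WT TAC lowest, T497A TAC next and both sham groups highest, with no overlap between the first and second or between these and the sham groups. It fell 1.65-fold in WT (log2 fold change -0.72 ± 0.07, edgeR adjusted p = 1.67e-05), had a value of -0.22 ± 0.07 in T497A (adjusted p = 0.245) and an interaction of 0.50 ± 0.10 (adjusted p = 0.0281).

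Sucla2 was at 743, 738 and 761 CPM in WT sham, 484 ± 21.3 in WT TAC (SD, n = 3; 495 and 460 in replicates 1 and 3), 786, 736 and 718 in T497A after sham and 712, 594 and 654 in T497A after TAC. The groups had the same order as for Suclg2, with T497A TAC replicate 1 close to the lowest T497A sham library. It fell 1.54-fold in WT (-0.63 ± 0.07, edgeR adjusted p = 5.14e-05), with -0.19 ± 0.07 in T497A and an interaction of 0.43 ± 0.10 that just passed the threshold (adjusted p = 0.0495). Suclg1, the alpha subunit gene common to both ligases, fell in WT as well (-0.60 ± 0.06), and its interaction of 0.34 ± 0.08 did not pass (edgeR adjusted p = 0.0612).

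Idh3a was at 643, 652 and 689 CPM in WT sham, 424, 446 and 428 in WT TAC, 727, 625 and 648 in T497A after sham and 603, 517 and 560 in T497A after TAC. No 2 of its groups overlapped apart from the sham groups. It fell 1.53-fold in WT (-0.61 ± 0.07, edgeR adjusted p = 7.01e-05), and the interaction of 0.36 ± 0.10 was not called (adjusted p = 0.0943).

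The smallest falls of the cycle were those of Mdh2 and Idh2, the mitochondrial malate dehydrogenase and the NADP-dependent isocitrate dehydrogenase. Mdh2 was at 987, 947 and 963 CPM in WT sham, 711, 842 and 787 in WT TAC, 962, 944 and 966 in T497A after sham and 844, 778 and 809 in T497A after TAC. Idh2 was at 1990, 1640 and 1780 CPM in WT sham, 1260, 1570 and 1490 in WT TAC, 1780, 1670 and 1920 in T497A after sham and 1400, 1430 and 1780 in T497A after TAC. For both genes the 2 TAC groups overlapped, and for Idh2 the T497A sham and TAC libraries overlapped too. The falls in WT were 1.24-fold for Mdh2 (-0.31 ± 0.07, edgeR adjusted p = 0.00431) and 1.25-fold for Idh2 (-0.32 ± 0.11, adjusted p = 0.043), and the interactions were 0.07 ± 0.09 and 0.10 ± 0.15. The WT call of Idh2 was lost without WT sham replicate 1 or 3, WT TAC replicate 1 or 3 or T497A sham replicate 1 or 3. The other 9 genes of the cycle, from citrate synthase (Cs) to fumarase (Fh1) and cytosolic malate dehydrogenase (Mdh1), fell in WT by log2 values of -0.33 (Ogdh) to -0.60 (Suclg1), and their T497A values lay between -0.12 (Ogdh) and -0.28 (Idh3g).

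In the pyruvate dehydrogenase group the phosphatase gene Pdp2 had the largest fall of the 12 genes, and of all 46. It was at 60.2, 60.4 and 61.4 CPM in WT sham, 23.6, 23.5 and 15.3 in WT TAC, 55.1, 57.2 and 55.2 in T497A after sham and 51.5, 47.7 and 39.7 in T497A after TAC. The sham libraries were close to one another within each genotype, and every WT TAC library lay far below them. The T497A TAC libraries lay below all T497A sham libraries by less, replicate 3 the furthest. Pdp2 fell 2.91-fold in WT (-1.54 ± 0.14, edgeR adjusted p = 1.67e-05), had -0.27 ± 0.14 in T497A (adjusted p = 0.486) and an interaction of 1.27 ± 0.20 (adjusted p = 0.0127). After TAC its level was 2.22-fold higher in T497A than in WT (1.15 ± 0.14, edgeR adjusted p = 0.000791).

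Pdp1, the calcium-sensitive isoform of the phosphatase, was at 58.1, 58.6 and 67.7 CPM in WT sham, 45, 41.2 and 36.5 in WT TAC, 48.4, 51.4 and 56 in T497A after sham and 48.4, 50.3 and 51.3 in T497A after TAC. The WT groups did not overlap, the T497A groups did, and all T497A sham libraries lay below all WT sham libraries. It fell in WT (-0.59 ± 0.09, edgeR adjusted p = 0.000406), and its interaction of 0.53 ± 0.13 did not pass (adjusted p = 0.0556). Between the sham groups its log2 difference was -0.24 ± 0.09, with an unadjusted p of 0.0176 and an edgeR adjusted p = 1.

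Pdpr, the regulatory subunit of the phosphatase, was at 175, 166 and 165 CPM in WT sham, 98.2, 99.9 and 115 in WT TAC, 175, 137 and 143 in T497A after sham and 151, 128 and 141 in T497A after TAC. The WT groups were apart and the T497A groups overlapped, with T497A sham replicate 1 above the rest of its group. It fell 1.61-fold in WT (-0.69 ± 0.10, edgeR adjusted p = 0.00021), and the interaction of 0.57 ± 0.14 was not called (adjusted p = 0.0553).

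Among the kinases that oppose them, Pdk2, a widely expressed isoform, was at 476, 446 and 406 CPM in WT sham, 276, 312 and 290 in WT TAC, 433, 419 and 443 in T497A after sham and 382, 352 and 377 in T497A after TAC. It fell 1.51-fold in WT (-0.60 ± 0.07, edgeR adjusted p = 6.66e-05), with an interaction of 0.37 ± 0.10 (adjusted p = 0.0765). The transcripts of Pdk2 and of the 3 phosphatase subunits thus all fell in WT, Pdp2 the most. Relative to the WT sham mean, the log2 level of Pdp2 minus that of Pdk2 was -0.98 ± 0.36 in WT TAC (SD, n = 3), -0.09 ± 0.07 in T497A after sham and -0.14 ± 0.21 in T497A after TAC. In WT TAC the same difference from Pdk2 was 0.01 ± 0.20 for Pdp1 and -0.10 ± 0.15 for Pdpr, each smaller than its SD.

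Pdk1, an isoform induced by low oxygen in many cells, was at 312, 276 and 312 CPM in WT sham, 252, 237 and 266 in WT TAC, 301, 288 and 285 in T497A after sham and 282, 267 and 295 in T497A after TAC. It had the smallest called fall of the group in WT (1.19-fold, -0.25 ± 0.07, edgeR adjusted p = 0.0175), and its T497A groups overlapped. The call was lost without WT sham replicate 1 or 3 or WT TAC replicate 2.

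Pdk4, the isoform induced by fasting and fatty acids, was the most uneven gene of the set. It was at 221, 523 and 194 CPM in WT sham, 613, 266 and 361 in WT TAC, 383, 1180 and 261 in T497A after sham and 454, 362 and 257 in T497A after TAC. Replicate 2 was the highest library of both sham groups, and all groups overlapped. No comparison called it: its log2 fold change was 0.40 ± 0.64 in WT (edgeR adjusted p = 0.698) and -0.77 ± 0.64 in T497A (adjusted p = 0.722). The T497A value became 0.15 without T497A sham replicate 2.

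**Figure D3:**
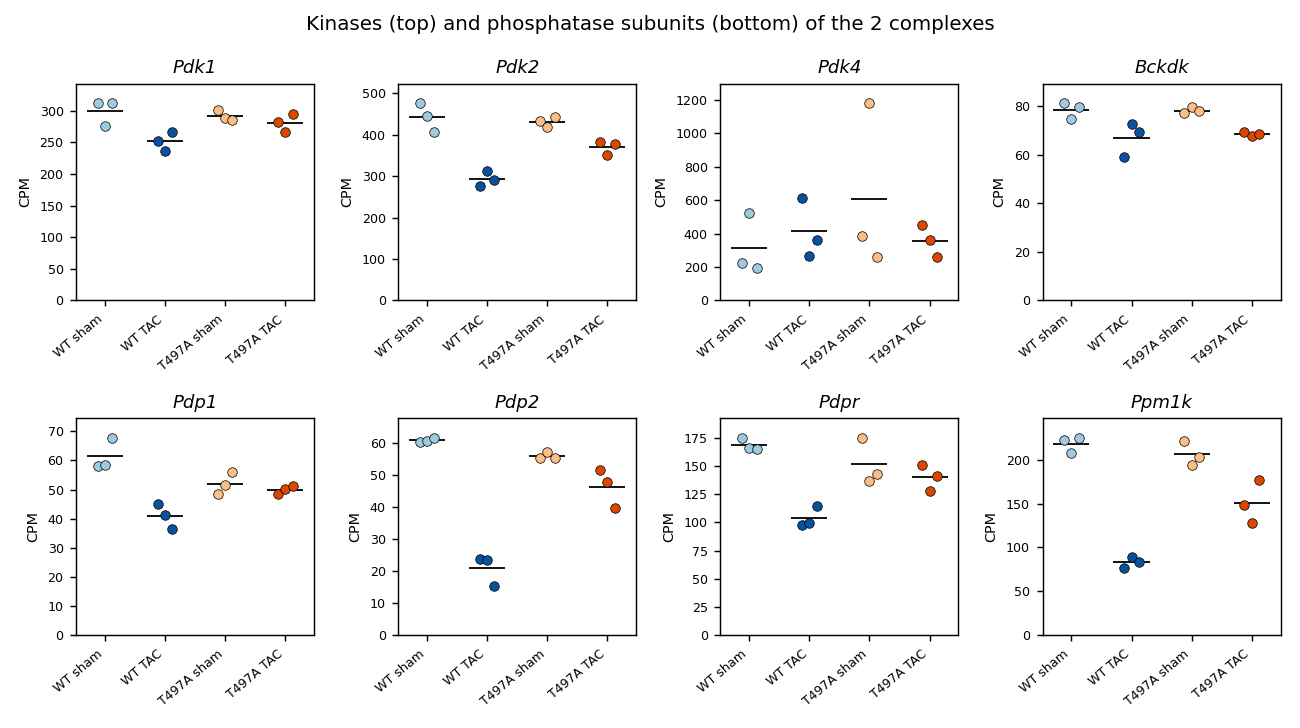
Levels in CPM (vertical axis, starting at 0) of 4 kinase genes (top row) and 4 phosphatase subunit genes (bottom row) of the pyruvate dehydrogenase and branched-chain complexes are plotted for each of the 12 libraries, with a line at each group mean. Pdp2 and Ppm1k show the widest gap between WT sham and WT TAC, Bckdk a narrow one, and Pdk4 no separation of groups, with 1 T497A sham library at 1180 CPM.

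Among the subunits of the complex itself, Pdhb (the E1 beta subunit) had the smallest called fall. It was at 470, 538 and 534 CPM in WT sham, 442, 378 and 409 in WT TAC, 545, 500 and 520 in T497A after sham and 455, 444 and 450 in T497A after TAC. The T497A TAC libraries were the most even of the 4 groups and lay just above the highest WT TAC library. Pdhb fell 1.26-fold in WT (-0.33 ± 0.07, edgeR adjusted p = 0.00483), with an interaction of 0.11 ± 0.10.

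Pdhx, the protein that anchors the E3 subunit, was the 1 subunit gene not called in WT. It was at 147, 167 and 155 CPM in WT sham, 149, 136 and 136 in WT TAC, 155, 156 and 155 in T497A after sham and 175, 152 and 169 in T497A after TAC. The sham and TAC libraries overlapped in both genotypes. Its log2 fold change was -0.15 ± 0.07 in WT (edgeR adjusted p = 0.138) and 0.09 ± 0.07 in T497A (adjusted p = 0.696). The E1 alpha gene Pdha1, the E2 gene Dlat and the pyruvate carrier genes Mpc1 and Mpc2 fell in WT by log2 values of -0.47, -0.40, -0.36 and -0.49, and their interactions of 0.22 to 0.33 were not called.

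Branched-chain breakdown held the largest falls of the set apart from Pdp2 and Gpt. Ppm1k, the phosphatase that activates the branched-chain ketoacid dehydrogenase, was at 223, 208 and 225 CPM in WT sham, 76.1, 89.7 and 83 in WT TAC, 222, 194 and 203 in T497A after sham and 148, 128 and 177 in T497A after TAC. The 2 TAC groups were apart from each other and from the sham groups, and T497A TAC replicate 3 came closest to sham. Ppm1k fell 2.64-fold in WT (-1.40 ± 0.10, edgeR adjusted p = 4.42e-06), had -0.45 ± 0.10 in T497A (adjusted p = 0.117) and an interaction of 0.95 ± 0.15 (adjusted p = 0.0108). After TAC its level was 1.82-fold higher in T497A than in WT (0.87 ± 0.10, edgeR adjusted p = 0.00056).

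The kinase gene Bckdk, which acts against Ppm1k, moved far less. It was at 81.3, 74.9 and 79.7 CPM in WT sham, 59.3, 72.6 and 69.5 in WT TAC, 77.2, 79.8 and 78 in T497A after sham and 69.4, 67.8 and 68.6 in T497A after TAC. The T497A TAC libraries lay inside the range of the WT TAC libraries. Bckdk fell 1.17-fold in WT (-0.23 ± 0.07, edgeR adjusted p = 0.0379), had -0.19 ± 0.07 in T497A (adjusted p = 0.335) and an interaction of 0.04 ± 0.11. The WT call was lost without WT sham replicate 1 or 3, WT TAC replicate 1 or 3 or T497A sham replicate 3. Relative to the WT sham mean, the log2 level of Ppm1k minus that of Bckdk was -1.17 ± 0.05 in WT TAC (SD, n = 3), -0.08 ± 0.12 in T497A after sham and -0.35 ± 0.23 in T497A after TAC.

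The subunit genes of the complex fell in WT by amounts between those of Bckdk and Ppm1k. Bckdhb, the E1 beta subunit, was at 65.7, 61 and 60.4 CPM in WT sham, 29.8, 33.9 and 26.1 in WT TAC, 59.8, 56.1 and 52.3 in T497A after sham and 49.2, 37.5 and 46.4 in T497A after TAC. It fell 2.09-fold in WT (-1.06 ± 0.11, edgeR adjusted p = 2.62e-05), with an interaction of 0.72 ± 0.15 (adjusted p = 0.0391). All T497A TAC libraries lay above all WT TAC libraries and below all sham libraries.

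Dbt, the E2 core of the same complex, was at 121, 124 and 114 CPM in WT sham, 64.1, 59.8 and 53.1 in WT TAC, 125, 113 and 108 in T497A after sham and 109, 83.3 and 101 in T497A after TAC. The WT groups were far apart, whereas the T497A groups touched at 108 and 109 CPM. Dbt fell 2.02-fold in WT (-1.02 ± 0.10, edgeR adjusted p = 1.72e-05), with an interaction of 0.78 ± 0.14 (adjusted p = 0.0199). Bckdha, the E1 alpha subunit, fell 1.64-fold in WT (-0.72 ± 0.10), and its interaction of 0.49 ± 0.14 was not called (edgeR adjusted p = 0.0934). Of the Bckdha exon bases 61.7% overlap B3gnt8 on the opposite strand, and whether the counts used strand is not given in the sources used here.

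Further down the valine branch, Aldh6a1 encodes methylmalonate semialdehyde dehydrogenase. It was at 338, 309 and 322 CPM in WT sham, 153, 156 and 143 in WT TAC, 349, 275 and 284 in T497A after sham and 270, 210 and 252 in T497A after TAC. The 2 TAC groups did not overlap each other or their sham groups. Aldh6a1 fell 2.14-fold in WT (-1.10 ± 0.10, edgeR adjusted p = 1.17e-05), with an interaction of 0.79 ± 0.14 (adjusted p = 0.0199). Of its exon bases 18.6% overlap Bbof1 on the opposite strand. Overlaps with a gene on the opposite strand also covered 23.1% of the exon bases of Mpc1, 16.1% of Pdha1 and 15.9% of Bcat2.

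Hibch, the hydrolase of the same branch, had the smallest called fall after Bckdk. It was at 101, 100 and 104 CPM in WT sham, 89.4, 80.6 and 78.7 in WT TAC, 102, 96.4 and 102 in T497A after sham and 102, 92.3 and 94.8 in T497A after TAC. It fell 1.23-fold in WT (-0.30 ± 0.07, edgeR adjusted p = 0.00531), and its T497A groups overlapped. The WT values of this branch thus ran from -0.30 for Hibch to -1.10 for Aldh6a1.

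In the leucine branch, Mccc2, the beta subunit of methylcrotonyl-CoA carboxylase, was at 77.2, 72.9 and 70.8 CPM in WT sham, 40, 44.5 and 41.2 in WT TAC, 69.9, 64.9 and 72.5 in T497A after sham and 63.2, 50.6 and 62.9 in T497A after TAC. It fell 1.76-fold in WT (-0.81 ± 0.09, edgeR adjusted p = 3.85e-05), with an interaction of 0.58 ± 0.12 (adjusted p = 0.0391). The T497A TAC libraries lay between the WT TAC and the sham libraries. Ivd, the isovaleryl-CoA dehydrogenase, fell by a like amount in WT (-0.82 ± 0.09), and its interaction of 0.50 ± 0.13 was not called (edgeR adjusted p = 0.073).

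Mccc1, the alpha subunit, is named here because its libraries were uneven, a choice made after its values were seen. It was at 117, 61.6 and 111 CPM in WT sham, 52.3, 42.5 and 52.5 in WT TAC, 62.7, 54.7 and 72.5 in T497A after sham and 72, 65.6 and 74 in T497A after TAC. WT sham replicate 2 was well below the other WT sham libraries and within the range of T497A sham. Its log2 fold change was -0.98 ± 0.21 in WT (edgeR adjusted p = 0.0077) and 0.16 ± 0.21 in T497A (adjusted p = 0.843), and its interaction, the second largest positive value of the set at 1.13 ± 0.30, was not called (adjusted p = 0.0913).

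Bcat2, the mitochondrial branched-chain transaminase that opens the pathway, was also named after its values were seen. It was at 123, 121 and 109 CPM in WT sham, 77.4, 58.6 and 85.6 in WT TAC, 107, 108 and 113 in T497A after sham and 62.5, 104 and 61.4 in T497A after TAC. Of the T497A TAC libraries 2 lay within the WT TAC range and replicate 2 lay near sham. It fell in WT (-0.67 ± 0.20, edgeR adjusted p = 0.0293), had -0.53 ± 0.20 in T497A (adjusted p = 0.33) and an interaction of 0.14 ± 0.28. The WT call was lost without any 1 of the WT sham libraries or without WT TAC replicate 1 or 2.

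The propionyl-CoA steps that follow the isoleucine and valine branches were split. Pcca, the alpha subunit of propionyl-CoA carboxylase, was at 112, 109 and 99.5 CPM in WT sham, 64, 68 and 60.4 in WT TAC, 105, 102 and 100 in T497A after sham and 93.6, 76.1 and 95.4 in T497A after TAC. It fell 1.67-fold in WT (-0.74 ± 0.09, edgeR adjusted p = 6.04e-05), with an interaction of 0.53 ± 0.12 (adjusted p = 0.0481). Pccb, its partner subunit, fell by less (-0.43 ± 0.08), and its interaction was 0.20 ± 0.12. The last 5 genes of the pathway, Auh, Hibadh, Acad8, Acadsb and Mcee, fell in WT by log2 values of -0.32 (Acad8) to -0.64 (Acadsb), and none of their interactions was called.

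Gpt, which interconverts alanine and pyruvate, was the 1 gene of the set called in both genotypes. It was at 30.2, 27.1 and 27.2 CPM in WT sham, 9.47, 11.1 and 10.8 in WT TAC, 30.5, 26.3 and 27.3 in T497A after sham and 20.9, 18.2 and 17.2 in T497A after TAC. The TAC groups were apart from each other and from sham. Gpt fell in WT (-1.43 ± 0.10, edgeR adjusted p = 3.44e-06) and, as given above, in T497A, with an interaction of 0.86 ± 0.14 (adjusted p = 0.0138).

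Got2, the mitochondrial aspartate transaminase, was at 449, 427 and 396 CPM in WT sham, 297, 348 and 333 in WT TAC, 419, 397 and 424 in T497A after sham and 351, 352 and 373 in T497A after TAC. It fell 1.30-fold in WT (-0.38 ± 0.07, edgeR adjusted p = 0.00165), and its interaction of 0.18 ± 0.10 was not called (adjusted p = 0.416). The lowest T497A TAC library lay just above the highest WT TAC library.

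Per exon length, the 46 transcripts covered a wide range of mean RPKM (CPM divided by exon length in kilobases) in WT sham. The highest were 740 for Mdh1, 698 for Idh2 and 555 for Ogdh, and the lowest 9.49 for Acad8, 8.82 for Mccc1 and 7.55 for Auh. The low end rests on the lengths used, 10952 bases for Mccc1 and 9580 for Auh. In CPM these 2 genes had means of 96.6 and 72.4 in WT sham, and Gpt was the lowest of the set at 28.2. Ppm1k was at 36.3 and its opposing kinase Bckdk at 21.3 in WT sham, an order that was turned in WT TAC (13.8 and 18.2) and not in T497A TAC (25.1 and 18.6). The turn rests on the lengths used, 6022 and 3695 bases, each merged over all annotated exons of the gene. In CPM the mean of Ppm1k stayed above that of Bckdk in WT TAC (83 and 67.1). In RPKM Pdp2 stayed below Pdp1 in all 4 groups, at 10.7 and 13.6 in WT sham and 3.66 and 9.07 in WT TAC.

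**Figure D4:**
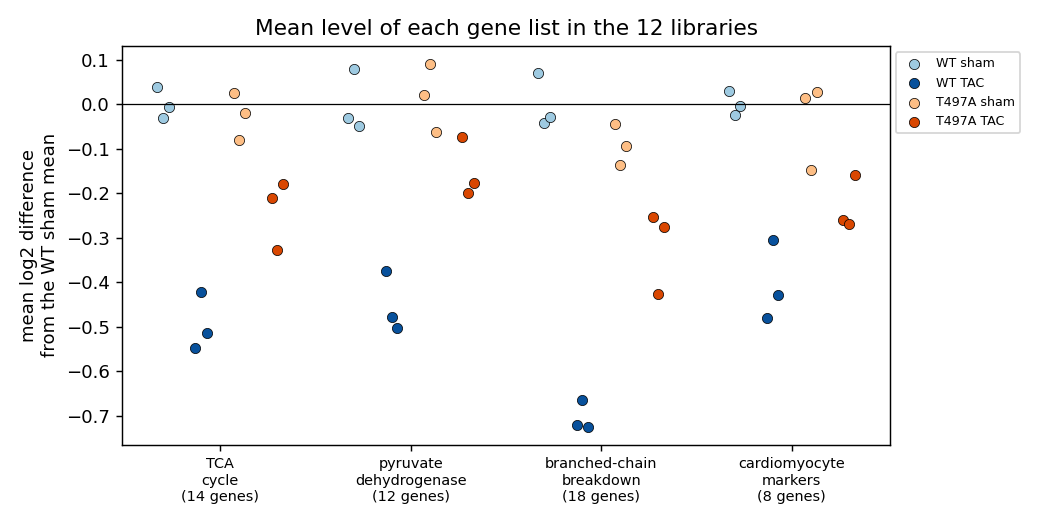
The mean log2 difference from the WT sham mean is plotted for each library (points) and 4 gene lists, coloured by group. Branched-chain breakdown shows the lowest WT TAC libraries (-0.66 to -0.72), and the cardiomyocyte markers lie at -0.31 to -0.48 in WT TAC and -0.16 to -0.27 in T497A after TAC.

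Seen by library, every WT TAC library lay below every T497A TAC library in the mean of all 3 pathway lists. In branched-chain breakdown the WT TAC means were -0.72, -0.66 and -0.72 and the T497A TAC means -0.25, -0.43 and -0.28. In the TCA cycle they were -0.55, -0.42 and -0.51 in WT TAC and -0.21, -0.33 and -0.18 in T497A after TAC. The 8 cardiomyocyte markers, plotted beside the pathways by library, showed the same order of the TAC libraries. They were at -0.48, -0.31 and -0.43 in WT TAC and -0.26, -0.27 and -0.16 in T497A after TAC. Among the sham libraries of these markers T497A sham replicate 2 was at -0.15, away from the others.

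Genes that act beside the 46 were counted from lists of their own, to be set against the 12.6% of all tested genes that fell in WT and the 12.3% that rose. Of 21 further genes of the TCA cycle, anaplerosis and mitochondrial carriers 13 fell and 1 rose in WT (median -0.42). The largest fall was that of Gpt2, the mitochondrial alanine transaminase (-1.05 ± 0.14, edgeR adjusted p = 0.000136), and the rise that of the citrate carrier gene Slc25a1 (0.82 ± 0.23, adjusted p = 0.0181). Of 12 genes of lactate handling, lipoylation and mitochondrial sirtuins 3 fell and 1 rose (median -0.15). Ldhb, the lactate dehydrogenase subunit of heart, fell (-0.66 ± 0.07), and Slc16a3, a lactate exporter, rose from 1.06, 1.39 and 0.929 CPM in WT sham to 3.24, 2.56 and 4.01 in WT TAC (1.53 ± 0.27, edgeR adjusted p = 0.000998) and lay at 1.18 to 1.41 CPM in T497A TAC.

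Of 17 further genes of branched-chain, propionate and ketone metabolism 10 fell and 3 rose in WT (median -0.28). Mmut, the methylmalonyl-CoA mutase below Pcca, fell most (-0.87 ± 0.15), and Slc7a5, a plasma membrane carrier of branched-chain amino acids, rose most (0.92 ± 0.17), followed by Bdh1 and by Slc3a2, the partner of Slc7a5. Hsd17b10, which acts in the isoleucine branch, was the 1 gene of this list called in the interaction (0.43 ± 0.09, edgeR adjusted p = 0.0432).

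Of 15 transcriptional regulators of these pathways 4 fell in WT (Esrrg, Ppargc1b, Gabpa and Tfam) and 0 rose with edgeR, against 12.6% and 12.3% of all tested genes. At an unadjusted p under 0.05 in either direction the counts were 7 of 15 regulators and 5719 of the 15764 tested genes. Esrrg, an estrogen-related receptor of oxidative tissues, was at 86.7, 85.8 and 90.2 CPM in WT sham, 62.1, 66.2 and 63.9 in WT TAC, 95.2, 79.7 and 84.7 in T497A after sham and 89.4, 84.6 and 87.2 in T497A after TAC. The WT TAC libraries were below all others, and the T497A groups overlapped. It fell 1.37-fold in WT (-0.45 ± 0.07, edgeR adjusted p = 0.000456), and it was the 1 regulator called in the interaction (0.46 ± 0.10, adjusted p = 0.0395). Klf15, a regulator of branched-chain genes in muscle, and Ppara were uneven within groups and not called. Klf15 ranged from 40.3 to 56.5 CPM in WT sham, 19.6 to 42.2 in WT TAC, 21.4 to 44.9 in T497A after sham and 26.3 to 48.3 in T497A TAC (log2 fold change in WT -0.63 ± 0.38, edgeR adjusted p = 0.268). Ppara, a nuclear receptor for fatty acids, ranged from 47.1 to 78.9 CPM in WT sham, 29.4 to 47.7 in WT TAC, 37 to 86 in T497A after sham and 40.6 to 63.6 in T497A TAC (log2 fold change in WT -0.69 ± 0.34, edgeR adjusted p = 0.171).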

How the data were processed

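Left ventricular RNA was measured in 12 libraries, 3 in each of 4 groups taken from the sample titles. Every title carries the same replicate number, so replicates were named by accession order, which pairs none of them. Per the labels' protocols, an mRNA library kit and single-end sequencing of 75 cycles were used. All libraries share 1 batch date in the labels. The authors deposited raw read counts per gene as whole numbers. The submitters' processing notes name the mm10 build and, among the tools, STAR 2.7.3a, Subread 1.6.3 with featureCounts, Trim Galore 0.6.4 and limma 3.50.3. Settings, annotation, strand and the counting of multiply mapped reads are not given there. Pairs of replicates differed by a chi-square per degree of freedom of 21.9 to 60.3, and none was treated as a duplicate.

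The counts of all genes kept by filterByExpr (minimum count 10; 15764 genes) were fitted with edgeR 4.0.16 in R 4.3.3: TMM scaling, then a robust glmQLFit of a single model with 4 group means, then glmQLFTest. Genes were called at a Benjamini-Hochberg adjusted p below 0.05. The SE was taken from the test, as the absolute log2 fold change over the root of its F. Levels are CPM with TMM-scaled library sizes, and RPKM uses exon lengths of GENCODE for GRCm38. Log2 levels used for library means and for differences between genes have a prior count of 2.

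The 46 genes and the lists were chosen with earlier results of these data known. Named with values per library are each kinase and phosphatase, the 3 largest and 2 smallest called TAC effects in WT of each pathway, the genes called in T497A, the 8 smallest p of the interaction, and genes not called in WT. Mccc1, Bcat2 and Pcca were added after their values were seen. From the other lists, genes called in the interaction and the largest rise and fall in WT are named, and Slc16a3, Klf15 and Ppara with their levels. Alternatives were DESeq2 1.42.0, limma-voom (limma 3.58.1), RLE size factors, leaving out mitochondrially encoded genes, no filter, fits on the 6 libraries compared, and leaving out each library in turn.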

Additional observations from a re-analysis of the deposited data

Results flagged for a closer look

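The TAC effect differed between genotypes, by the interaction term of edgeR's quasi-likelihood test, for 10 of the 46 genes. The log2 TAC effect in T497A minus that in WT was 1.27 for Pdp2 (adjusted p = 0.0127 with edgeR), 0.95 for Ppm1k, 0.857 for Gpt, 0.788 for Aldh6a1, 0.781 for Dbt, 0.724 for Bckdhb, 0.584 for Mccc2, 0.527 for Pcca, 0.503 for Suclg2 and 0.434 for Sucla2 (adjusted p = 0.0495 with edgeR). In each of the 10 genes all 3 WT TAC libraries lay below all 3 T497A TAC libraries. The interaction that picked these genes holds this difference, so their separation adds no support. Without that choice, the libraries lay so for 38 of the 46 genes and for 14.4% of all tested genes.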

How the results depend on the processing

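In WT, 39 to 44 of the 46 genes were called lower after TAC under every alternative run. In T497A the count of 1 became 6 with DESeq2, 7 with no filter on low counts, 0 with limma-voom and 0 in a fit of its own 6 libraries, and 0 to 1 when each library was left out; over all genes the 18 calls became 296, 331, 0 and 0. For the interaction the count of 10 became 23 with DESeq2 and 21 with no filter, and 3 to 19 when each library was left out; over all genes the 248 calls became 847 and 898. After TAC, 27 genes higher in T497A became 13 to 29 with each library left out and 18 in a fit of the 6 TAC libraries. After sham, 0 became 0 to 1. Fits without a library have fewer samples; the cause of the other shifts was not tested.

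Values that were not called changed sign when 1 library was left out. The TAC effect in T497A ran from -1.13 to 0.15 for Pdk4, from -0.104 to 0.000193 for Pdp1 and from -0.171 to 0.0462 for Mcee. The interaction ran from -0.0445 to 0.098 for Bckdk, from -0.0155 to 0.171 for Idh2 and from -0.147 to 0.273 for Bcat2. No other gene of the set changed sign in either TAC effect or in the interaction under any alternative run.

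No paired analysis was possible because every title carries the same replicate number. With 3 libraries per group, small differences between genotypes were at the limit of what the test called, while depth (at least 432 counts per gene and library) was not low for any of the 46 genes.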
